A study of Homo sapiens with 18 samples.

Results

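MOLM-13 is a human leukaemia line of the monocytic kind, and the cells described here received only DMSO, the solvent in which test compounds are dissolved. RNA was taken after 4 h and after 24 h of DMSO, with 3 samples at each time, so the 2 groups hold 6 of the 18 samples of the series. Both groups were grown in RPMI medium with 10% serum, and no deletion, transgene or second agent is named for either. The other 12 samples received IACS-9571, a bromodomain ligand, or dTRIM24, a degrader of TRIM24, at the same times. The labels' treatment note gives 24 h for every sample, but the titles and time points name 4 h or 24 h, as does the design text, and those were used. Whether the 3 samples of a group were separate cultures is not stated in the labels.

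Each gene has 1 value per group in the deposited table, the group's mean FPKM, which is a number of fragments per length of transcript and size of library. No replicate error can be given from 1 mean, nothing was tested, and how deeply the libraries were read is unknown. Of 23713 rows, 92 are ERCC spike-ins, synthetic RNAs mixed into every sample in known amounts, and 23621 are gene rows. The description covers the 10936 gene rows with at least 1 FPKM in either DMSO column. At that floor OCLN (1.0004 FPKM at 4 h and 0.914 FPKM at 24 h) was just inside, and ZNF554 (0.998 FPKM and 0.758 FPKM) was just outside. Differences are of log2(FPKM + 1), 24 h minus 4 h, a scale that understates the change of low genes. A gene is said to rise or fall only where this difference passed 1, that is 2-fold. For scale, 25 spike-ins with at least 5 FPKM at both times had a median difference of -0.01 and an SD of 0.19 across spike-ins, which is not a replicate error.

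Leukaemic monoblasts stop partway between the granulocyte-monocyte progenitor and the mature monocyte. At that stage a cell fills its primary granules with serine proteases, under transcription factors such as PU.1 (SPI1), CEBPA and IRF8, and later granule proteins are made by maturing neutrophils. MOLM-13 carries a fusion of the MLL gene, and such fusions keep the HOXA genes and MEIS1 switched on. It also depends on the receptor tyrosine kinase FLT3. The levels below show how much of this program the solvent-treated cells held. Levels are given in pairs, 4 h first and 24 h second.

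The list of primary granule genes, serine proteases among them, held the lineage genes of highest level and had the lowest median difference of the lists described. AZU1 (azurocidin) and PRTN3 (proteinase 3) lie in a cluster with ELANE on chromosome 19. The list of metallothionein genes, which encode small zinc- and copper-binding proteins, stood highest among the lists of polyadenylated RNAs. The promoters of 2 genes of each kind are printed because these lists lie at opposite ends of the time comparison. The ELANE, MT1G, MT1F and MT1E promoters are named only. Each runs from 250 bases before to 50 bases after the gene's start, from RefSeq on GRCh38.p14, while the expression table was made on hg19. In AZU1 (chr19:827587-827886, plus strand) and PRTN3 (chr19:840749-841048, plus strand) capitals mark the letters TTNNGCAA, bound by C/EBP factors, and GAGGAAGT, a PU.1 site, on either strand.
AZU1: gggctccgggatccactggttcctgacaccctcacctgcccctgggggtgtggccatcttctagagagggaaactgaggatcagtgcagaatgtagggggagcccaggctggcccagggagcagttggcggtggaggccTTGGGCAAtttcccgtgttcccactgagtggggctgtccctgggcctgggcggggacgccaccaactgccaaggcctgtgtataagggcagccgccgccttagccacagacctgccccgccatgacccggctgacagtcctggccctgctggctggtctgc
PRTN3: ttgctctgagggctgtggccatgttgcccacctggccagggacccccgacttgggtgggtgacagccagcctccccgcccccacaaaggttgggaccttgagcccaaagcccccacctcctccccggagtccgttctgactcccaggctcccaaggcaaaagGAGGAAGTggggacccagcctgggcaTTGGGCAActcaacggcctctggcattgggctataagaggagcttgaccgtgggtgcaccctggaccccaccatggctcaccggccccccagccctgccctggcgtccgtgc
Both hold TTNNGCAA 1 time, and 10.5% of all 35116 promoters of this length hold it. PRTN3 also holds GAGGAAGT 1 time, against 2.59% of promoters, and AZU1 does not hold these letters in this window.

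In MT1X (chr16:56682220-56682519, plus strand) and MT2A (chr16:56608334-56608633, plus strand) capitals mark TGCACNC and TGCGCNC on either strand, the core of the metal response element bound by MTF1.
MT1X: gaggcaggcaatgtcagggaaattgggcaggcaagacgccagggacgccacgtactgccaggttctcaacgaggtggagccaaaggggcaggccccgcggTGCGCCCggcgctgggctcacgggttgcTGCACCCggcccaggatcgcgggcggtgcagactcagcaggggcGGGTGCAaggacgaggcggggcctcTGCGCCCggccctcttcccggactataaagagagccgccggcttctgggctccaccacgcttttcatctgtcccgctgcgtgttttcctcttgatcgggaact
MT2A: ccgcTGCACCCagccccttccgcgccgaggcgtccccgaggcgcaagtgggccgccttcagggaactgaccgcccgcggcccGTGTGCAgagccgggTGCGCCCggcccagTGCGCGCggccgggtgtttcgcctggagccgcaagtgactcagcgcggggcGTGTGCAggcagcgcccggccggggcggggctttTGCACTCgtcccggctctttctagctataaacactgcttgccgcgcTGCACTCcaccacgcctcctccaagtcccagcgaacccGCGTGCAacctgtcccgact
TGCACNC occurs 2 times in MT1X and 6 times in MT2A, and 12.1% of promoters hold it at least once. TGCGCNC occurs 2 times in each, and 19.97% of promoters hold it. PRTN3 also holds TGCACNC 2 times, so the letters are not particular to metallothionein genes. The 4 promoters are all rich in G and C, at 66.0% in AZU1, 66.7% in PRTN3, 67.0% in MT1X and 72.0% in MT2A. A match is a description of letters and says nothing about binding in these cells.

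The solvent-treated cells were dominated by the RNAs of protein synthesis. Of the 20 gene rows of highest mean level, small RNA rows left out, all but EEF1A1 and TPT1 encode cytosolic ribosomal proteins. RPS18 stood at 13697 FPKM at 4 h and 12256 FPKM at 24 h, and RPS27 at 13684 FPKM and 10961 FPKM. EEF1A1, which carries aminoacyl-tRNA to the ribosome, stood at 11234 FPKM and 8826 FPKM. TPT1, a translationally controlled tumour protein, stood at 9738 FPKM and 8769 FPKM. At 4 h RPS12 stood at 10204 FPKM and RPS17L at 8628 FPKM. Among the rest of these rows were RPS24, RPS29, RPL41, RPL7, RPL30, RPLP1, RPL26, RPL37A, RPS6, RPS25, RPL12, RPL38 and RPS28. RPLP1, a protein of the ribosomal stalk, had the largest difference of the list of ribosomal proteins, from 6825 FPKM to 4365 FPKM (-0.64). With small RNA rows left out, cytosolic ribosomal protein rows held 37.3% of gene FPKM at each time, and 66 of the 100 highest rows at each time belonged to them. The 2 sets of 100 highest rows shared 98 rows, and the levels of other genes at the 2 times had a Pearson correlation of 0.996 across genes, which are not independent replicates. At 4 h 10837 gene rows reached 1 FPKM, 981 reached 100 FPKM. At 24 h the same counts were 10670 and 809.

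The highest rows of all carry a microRNA name. MIR1244-2 stood at 127690 FPKM at 4 h and 77231 FPKM at 24 h, and MIR1244-3 at 128169 FPKM and 78171 FPKM. Together these 2 rows made up 24.4% of all gene FPKM at 4 h and 19.1% at 24 h. The mature sequence from RefSeq is shown with its seed, bases 2 to 8, in capitals, because the letters of its hairpin also lie in a protein-coding RNA.
hsa-miR-1244: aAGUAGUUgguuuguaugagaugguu
The 85-base hairpin occurred whole in 4 of the 12 GENCODE transcripts of PTMA, the abundant nuclear protein prothymosin alpha, and in no transcript of a gene other than PTMA and the MIR1244 copies. PTMA itself stood at 4660 FPKM and 3958 FPKM (-0.24). Reads of PTMA and of this microRNA cannot be told apart from these letters, and division by a length of 85 bases makes any read count large on the FPKM scale.

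Genes of the granulocyte-monocyte stage gave the cells their lineage. Of 16 primary granule genes 13 reached 1 FPKM at both times, and the other 3, the defensins DEFA1, DEFA3 and DEFA4, were at or near the lowest values of the table. CTSG (cathepsin G) stood at 1604 FPKM at 4 h and 1096 FPKM at 24 h, and ELANE (neutrophil elastase) at 1057 FPKM and 685 FPKM. AZU1 followed with 1029 FPKM and 599.5 FPKM, and PRTN3 with 430.4 FPKM and 255 FPKM. These proteases were lower at 24 h in each case, as were 94.7% of all kept rows, and none passed 2-fold. SRGN (serglycin), the proteoglycan core on which granule proteins are packed, stood at 1410 FPKM and 1328 FPKM. MPO (myeloperoxidase), often the defining granule enzyme, was low here at 8.63 FPKM and 5.13 FPKM. Bulk RNA of this kind cannot tell fewer cells of a type from less RNA per cell.

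Genes of later neutrophil stages were mostly missing. Of 15 such genes 3 were clearly present: S100A9 at 128 FPKM and 112 FPKM, CHI3L1 at 87.4 FPKM and 61.9 FPKM, and S100A8 at 81.7 FPKM and 61.75 FPKM. S100A8 and S100A9 form calprotectin, which monocytes also make. LTF, LCN2, CEACAM8, CRISP3, OLFM4 and PGLYRP1, the secondary granule and surface genes, stood at 1 low value common to 6059 rows, 0.0914 FPKM at 4 h and 0.105 FPKM at 24 h. How the authors arrived at that common value is not stated, so no fold was drawn from it.

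Transcription factors of the stage were present. IRF8, needed for monocyte fate, stood at 201 FPKM and 151 FPKM, CEBPA at 159 FPKM and 115 FPKM, and SPI1 at 80.1 FPKM and 55.4 FPKM. MYB, a progenitor factor, stood at 131 FPKM and 112 FPKM. The factors of terminal maturation were low: CEBPE stood at 0.124 and 0.122 FPKM, and EGR2 at 0.132 and 0.128 FPKM. Of the 24 factors 18 reached 1 FPKM, and all of these were lower at 24 h with differences between -0.17 and -0.52 on the log2 scale. Over all kept rows 94.7% were lower, with a median of -0.22.

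Monocyte genes were present in part: of 30 on the list, 21 reached 1 FPKM at 4 h and 19 at 24 h. LYZ (lysozyme) stood at 458 FPKM and 377 FPKM, AIF1 at 351 FPKM and 309.9 FPKM, and CD4, which monocytes carry as well as T cells, at 74.5 FPKM and 60.2 FPKM. ITGB2, the beta chain of the leukocyte integrins, stood at 90.7 FPKM and 63.15 FPKM. CD33, a sialic acid receptor of myeloid cells, stood at 31.7 FPKM and 25.8 FPKM. The co-receptor of mature monocytes, CD14, was close to the shared low value at 0.207 FPKM and 0.160 FPKM, and FCN1, VCAN and FCGR3A were lower still. The label of a monocytic leukaemia line thus met its defining genes in part: lysozyme, CD33 and the integrin were present, CD14 was not.

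Progenitor surface genes divided in the same manner. CXCR4, the receptor that holds cells in marrow, stood at 124 FPKM and 106 FPKM, FLT3 at 95.8 FPKM and 84.0 FPKM, and IL3RA at 31.9 FPKM and 26.5 FPKM. CD34 and KIT, found on earlier progenitors, stood at 0.124 FPKM and 0.138 FPKM and at 0.174 FPKM and 0.136 FPKM. CD38 was among the few genes above 0, at 5.48 FPKM and 5.70 FPKM (0.05). The whole list of 18 had 11 kept genes and a median of -0.19, close to that of all rows.

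The MLL fusion program was on at both times. HOXA10 stood at 46.3 FPKM and 39.2 FPKM, HOXA9 at 30.1 FPKM and 25.9 FPKM, HOXA13 at 26.0 FPKM and 21.5 FPKM, and their cofactor MEIS1 at 12.3 FPKM and 10.4 FPKM. MEF2C and CDK6, both on the list as fusion targets, stood at 50.3 FPKM and 45.0 FPKM and at 50.4 FPKM and 44.6 FPKM. HOXA2 and HOXA4, nearer the other end of the cluster, stood at 0.243 and 0.205 FPKM and at 0.347 and 0.369 FPKM. The largest differences of the list were those of HOXA6 (1.74 FPKM and 1.04 FPKM, -0.42) and HOXA11 (15.5 FPKM and 11.75 FPKM, -0.37). FLT3 signalling targets were present as well: SOCS2 stood at 107 FPKM and 88.0 FPKM. All 16 genes of that list were lower at 24 h, with a median of -0.30 and none past 2-fold, where 94.7% of all kept rows were lower.

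Markers of other cell types were counted over 8 lists (erythroid, platelet, T and NK, B, mast cell and eosinophil, fibroblast, epithelial and endothelial). Of 84 markers 8 reached 1 FPKM, and the summed level of all 84 was 111 FPKM at 4 h and 87.3 FPKM at 24 h. The highest were NKG7, a lytic granule protein, at 32.0 FPKM and 20.4 FPKM, KRT18 at 29.7 FPKM and 24.6 FPKM, and NCAM1, an adhesion molecule of NK cells, at 23.9 FPKM and 19.97 FPKM. PAX5 stood at 5.15 FPKM and 3.70 FPKM and EPOR at 5.01 FPKM and 3.22 FPKM. Other members of these lists, such as the globins, CD3D, COL1A1, EPCAM and CDH5, were not among those that reached 1 FPKM. NKG7, KRT18, NCAM1, PAX5 and EPOR are markers on these 8 lists as well, and did reach it.

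**Figure D1:**
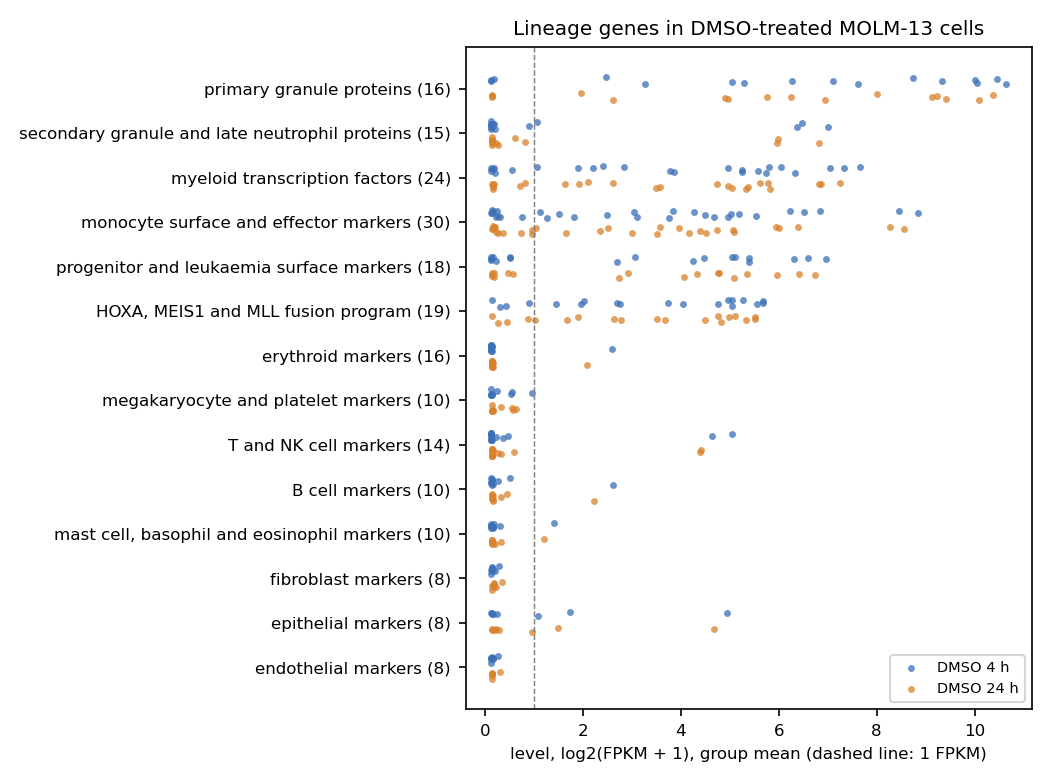
Levels of lineage genes in DMSO-treated cells, as log2(FPKM + 1) of the group mean, with 1 point per gene at 4 h (blue) and at 24 h (orange) and the number of genes of each list in brackets. Granule, transcription factor, monocyte, progenitor and HOXA lists spread far to the right of the dashed line at 1 FPKM, while 8 of 84 markers in the 8 lower lists reach it.

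The 24 h column stood lower than the 4 h column for nearly every gene. Of 10936 rows 10357 (94.7%) had a difference below 0, and the median was -0.22, which puts 24 h at 85.7% of 4 h on this scale. The total of all gene FPKM went from 1050220 to 813237, 22.6% less, and 17.6% less with small RNA rows left out. The spike-in median of -0.01 did not move with it. Whether the deposited values had already been scaled to the spike-ins was not tested, so that median is not an independent check. Rescaling to the spike-ins used another statistic, the ratio of the columns' median spike-in FPKM, and left 96.9% of rows below 0. Centring on the median of all rows takes the shift out by construction. Rescaling both columns to the same total instead puts the median of all rows at 0.10 and leaves 31.9% of rows below 0. Directions below are those of the deposited scale, and list medians are read beside the -0.22 of all rows.

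Few rows passed 2-fold: 88 were higher at 24 h (0.805% of rows) and 42 were lower (0.384%). Small RNA rows, which the table names as microRNA, small nucleolar, Y and similar genes, supplied 70 of the 88 and 36 of the 42, although they are only 160 of the rows kept. In 64 of these 106 rows 1 of the 2 columns stood under 0.12 FPKM, near the shared low value, so the row was measured at 1 time only. The largest were SNORD87 (0.0984 FPKM and 1933 FPKM) and SNORD82 (0.0941 FPKM and 1233 FPKM) upward, and MIR3191 (2214 FPKM and 0.101 FPKM) and MIR4687 (625 FPKM and 0.106 FPKM) downward. SNORD47, MIR147B and SNORD116-20 followed upward with 465, 373 and 288 FPKM at 24 h, and MIR1909, SNORD104 and SNORD35A downward with 542, 180.1 and 63.2 FPKM at 4 h. On so short a length a few reads make a large FPKM, and the number of reads is not known. A row that was kept only through the column where it is high had to differ, so nothing is drawn from these counts.

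**Figure D2:**
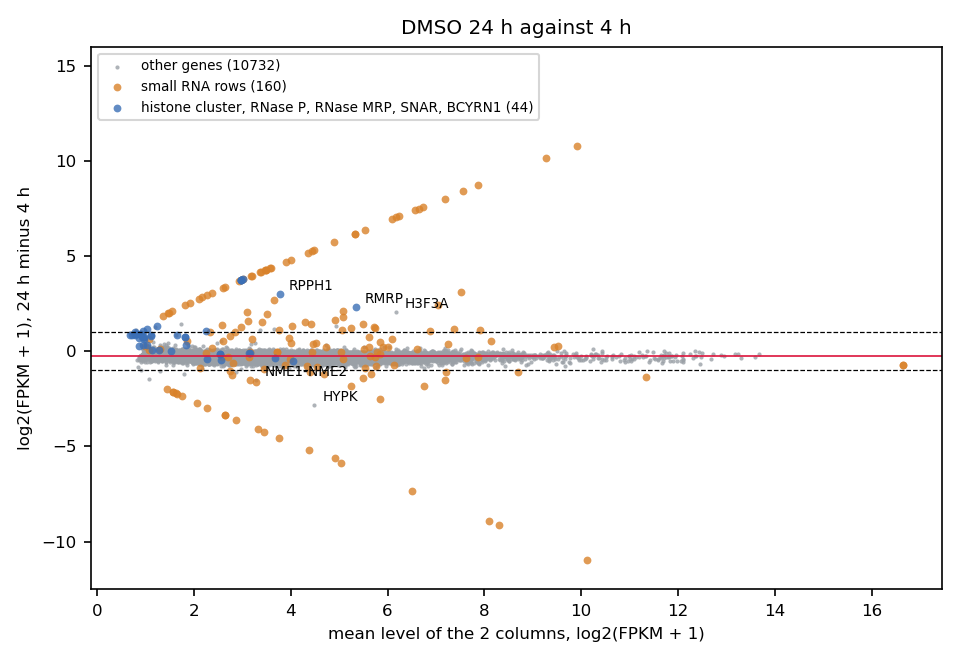
Difference of log2(FPKM + 1), 24 h minus 4 h, of the 10936 kept rows against their mean level in DMSO, with dashed lines at 2-fold and a red line at the median of -0.22. Most other genes (grey) lie in a narrow band below 0, while 447 of 10732 lie above 0 and 13 passed 2-fold. Most rows past 2-fold are small RNA rows (orange), many along 2 arms where 1 column is near the shared low value.

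Without small RNA rows 18 of 10776 rows rose (0.167%) and 6 fell (0.0557%). RNAs that lack a poly(A) tail were 11 of the 18. All but RMRP, RPPH1 and BCYRN1 reached 1 FPKM at 24 h only and so had to be higher there, and nothing is drawn from that count. RMRP, the RNA of the RNase MRP enzyme that processes ribosomal RNA, rose from 12.7 FPKM to 67.1 FPKM (2.32). RPPH1, the RNA of RNase P that trims the 5′ ends of tRNA, rose from 2.01 FPKM to 23.5 FPKM (3.02). SNAR-A6, with 0.0945 FPKM at 4 h and 14.1 FPKM at 24 h, belongs to a family of near-identical small RNA copies. SNAR-A13, SNAR-A12, SNAR-A2 and also SNAR-A1 had 0.0945 FPKM and 13.5 FPKM each. BCYRN1, a small cytoplasmic RNA derived from an Alu element, rose from 2.11 FPKM to 5.41 FPKM (1.04; 0.99 when rescaled to the spike-ins). The remaining 3 were HIST1H3B (0.349 FPKM to 2.37 FPKM, 1.32), HIST1H1B (0.256 FPKM to 1.83 FPKM, 1.17) and HIST1H4E (0.246 FPKM to 1.61 FPKM, 1.07), histone genes of the replication-dependent kind, whose RNAs end in a stem-loop.

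The whole list of replication-dependent histones was low. Of 72 genes 58 stood under 1 FPKM at 4 h and 37 at 24 h, so 21 of the 35 kept were kept through the 24 h column alone. HIST1H2BK, the highest, stood at 13.3 FPKM and 10.35 FPKM, and HIST2H2AC at 5.795 FPKM and 3.98 FPKM, both lower at 24 h. At a floor of 5 FPKM the median of the list was -0.16, against 0.76 at the floor of 1 FPKM, so the higher median rests on the low genes. HIST1H2BD stood at 1.23 FPKM and 3.04 FPKM (0.85). Of the 44 kept RNAs lacking a tail, 26 were under 1 FPKM at 4 h and 0 at 24 h, so the floor itself favours a higher sum at 24 h in DMSO. Their summed level was 105 FPKM in DMSO at 4 h and 265 FPKM at 24 h. It was 159.8 FPKM and 68.1 FPKM with IACS-9571, and 2686 FPKM and 135 FPKM with dTRIM24. The sum, of which RMRP, RPPH1 and the histone genes are parts, was highest in dTRIM24 at 4 h. How far the capture of RNAs without a tail differed between the libraries was not tested.

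Genes of DNA replication and mitosis, whose RNAs have tails, stood near the median of all rows. The 43 S phase genes had a median of -0.24 and the 42 mitosis genes one of -0.19, against -0.22 for all rows. Rescaled to the same total these medians were 0.13 and 0.17, against 0.10. MKI67, the proliferation antigen, stood at 21.2 FPKM and 19.1 FPKM. CDK1 stood at 144 FPKM and 139 FPKM, and CCNB1 (cyclin B1) at 107 FPKM and 95.3 FPKM. The largest differences of the mitosis list were those of CDC20 (132 FPKM and 92.9 FPKM, -0.50) and AURKB (41.8 FPKM and 29.2 FPKM, -0.50). CDKN2A and CDKN2B, inhibitors of the D cyclin kinases, stood at the shared low value, while CDKN1A stood at 90.8 FPKM and 71.1 FPKM. MYC stood at 211 FPKM and 168 FPKM (-0.33).

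The other 7 of the 18 rows that rose, and 3 of the 6 that fell, share their letters with another row. HYPK, a chaperone partner of the N-terminal acetyltransferase, fell from 38.3 FPKM to 4.49 FPKM (-2.84). The read-through row SERF2-C15ORF63, where C15ORF63 is an older name of HYPK, rose from 16.3 FPKM to 43.0 FPKM (1.35). Their sum, in which SERF2 itself is not counted, was 54.6 FPKM and 47.5 FPKM (-0.20), close to the median of all rows. H3F3A, a gene of the replacement histone H3.3, rose from 27.2 FPKM to 115 FPKM (2.04), while H3F3AP4, a processed copy of it, stood at 1174 FPKM and 868 FPKM. The sum of this pair, set mostly by H3F3AP4, was 1201 FPKM and 983 FPKM (-0.29). H3F3B, the other gene of the same protein, stood at 203 FPKM and 166 FPKM (-0.29). SLX1A rose from 5.48 FPKM to 13.2 FPKM (1.13) and its copy SLX1B stood at 43.5 FPKM and 24.2 FPKM, with a sum of 48.9 FPKM and 37.4 FPKM (-0.38).

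Read-through rows gave the rest. RBM14-RBM4 rose from 6.71 FPKM to 16.4 FPKM (1.17), NEDD8-MDP1 from 0.792 FPKM to 3.81 FPKM (1.42), PPAN-P2RY11 from 0.328 FPKM to 2.23 FPKM (1.28) and URGCP-MRPS24 from 0.104 FPKM to 1.39 FPKM (1.11). NME1-NME2 fell from 13.4 FPKM to 3.99 FPKM (-1.53), and P2RY11, a purinergic receptor gene that overlaps PPAN-P2RY11, fell from 8.99 FPKM to 3.62 FPKM (-1.11). The P2RY11 difference was -0.89 with median centring and -0.62 with the GC trend out, so its call depends on the scaling. Summed with their partners, the NME1 and NME2 locus stood at 1228 FPKM and 993 FPKM (-0.31) and the RBM14 and RBM4 locus at 119 FPKM and 105 FPKM (-0.18). The PPAN and P2RY11 locus stood at 50.1 FPKM and 30.8 FPKM (-0.68), the lowest of these sums. None of the 8 summed sets passed 2-fold. At 4 h NME1-NME2 held 13.4 FPKM of 1228 FPKM, and RBM14-RBM4 held 6.71 FPKM of 119 FPKM. In such sets the abundant rows fix the sum whatever the small row does, so nothing is drawn from those sums. The remaining rows that fell were LOC728875 (2.06 FPKM to 0.112 FPKM), HOXA-AS4 (3.84 FPKM to 1.11 FPKM) and HP07349 (2.29 FPKM to 0.616 FPKM), all under 5 FPKM. With median centring HOXA-AS4 stood at -0.98 and HP07349 at -0.80, under the threshold. Both were also under it when rescaled to the same total and with the GC trend out. Of 41 kept rows with a read-through name 6 passed 2-fold (14.6%), against 7 of the 10691 other genes with a tail and no such name (0.0655%). The rows NEDD8-MDP1, PPAN-P2RY11 and URGCP-MRPS24 reached 1 FPKM at 24 h only and so had to be higher there, and nothing is drawn from the share. Among these 10691, H3F3A and SLX1A were the 2 that rose.

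**Figure D3:**
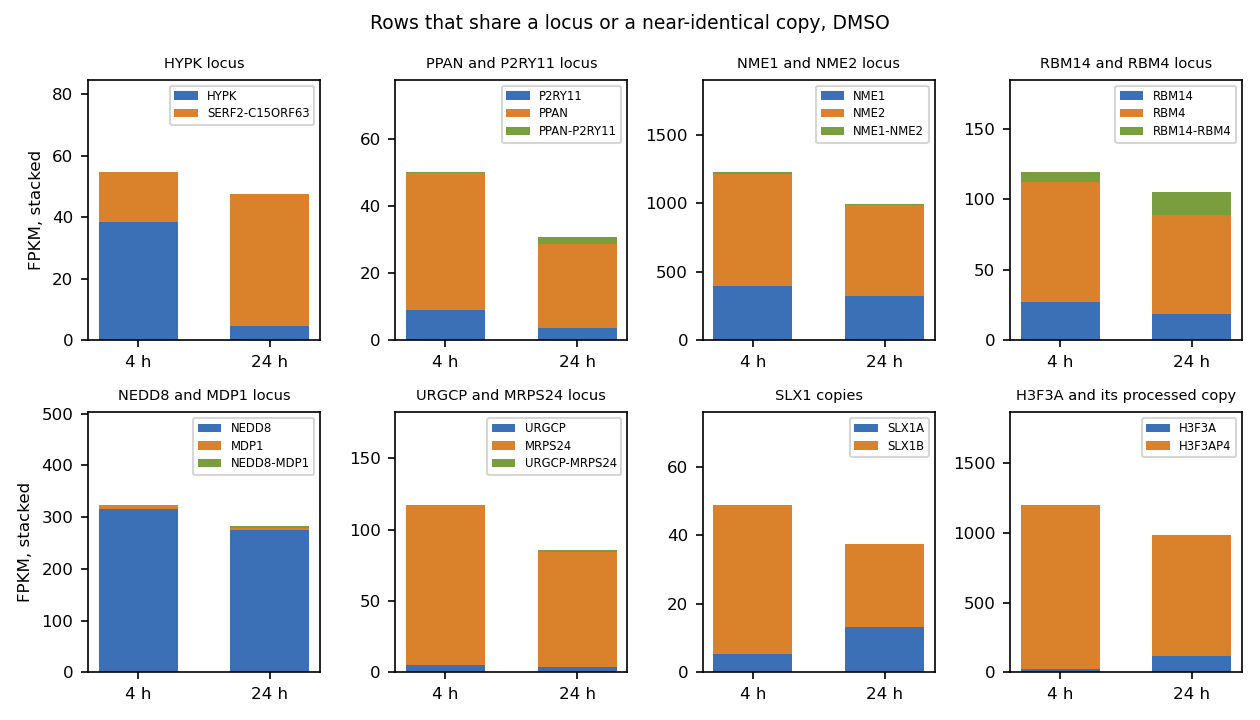
FPKM in DMSO at 4 h and 24 h of rows that share a locus or a near-identical copy, stacked, with 1 panel per set and each axis starting at 0. In the HYPK, SLX1 and H3F3A panels the split between rows differs between times, while the sums differ by -0.20, -0.38 and -0.29 on the log2 scale.

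At a threshold of 1.5-fold, genes with a tail gave 11 higher (0.102%) and 400 lower (3.73%) of 10732. Set beside the median of all rows, which takes the shared shift out, 18 stood higher and 16 lower by 1.5-fold. The spread of these differences was ordered by the GC content of the transcript, the share of G and C among its letters. GC content was found by symbol for 10550 of 10776 rows (97.9%) in GENCODE transcripts of another build than the table's. In 10 bins of 1055 genes the median went from -0.12 at a GC content of 37.1% to -0.50 at 64.0%, and each bin was lower than the bin before it. The Spearman rho across genes was -0.74, and across genes it is a description, since genes share libraries. Transcript length had a rho of 0.20 and mean level one of -0.14. Taking out a cubic trend on GC content narrowed the SD across other genes from 0.178 to 0.124. The fit takes out the shared shift as well, so values with the trend out compare with differences relative to the median of all rows. With IACS-9571 the same time difference had a rho with GC content of -0.45, and with dTRIM24 one of 0.62, the other way. The treated groups share no samples with the DMSO groups. Whether library preparation or sequencing gave this order was not tested.

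**Figure D4:**
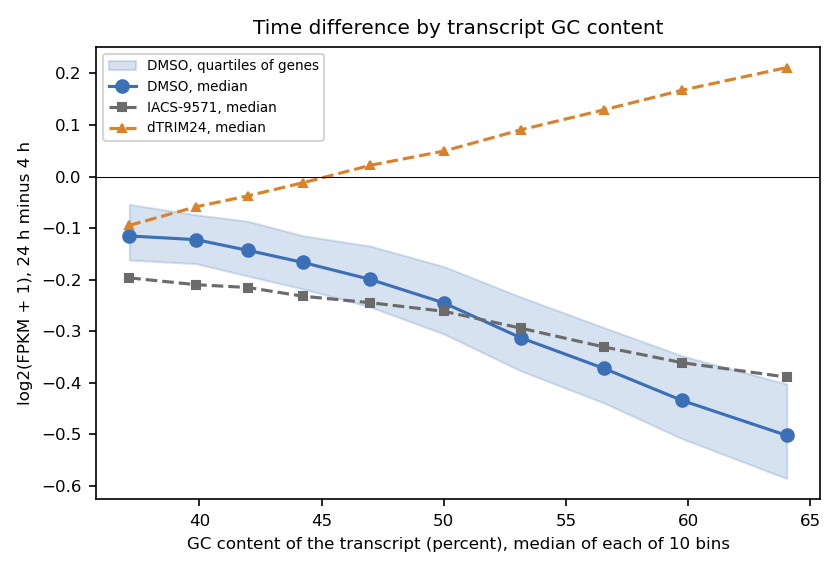
Difference of log2(FPKM + 1), 24 h minus 4 h, against the GC content of the transcript in 10 bins of 1055 genes, with the DMSO median (blue line), the DMSO quartiles across genes (blue band) and the medians with IACS-9571 (grey) and dTRIM24 (orange). The DMSO median goes from -0.12 to -0.50 with rising GC content, IACS-9571 slopes the same way and dTRIM24 the opposite way.

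The gene lists followed their GC content. Of 43 lists with at least 5 kept genes, RNAs without a tail and small RNA lists left out, 42 had a median below 0 on the deposited scale, 7 when rescaled to the same total, and 35 stood below the median of all rows. Across the 43 lists the median difference and the median GC content had a Spearman rho of -0.71, where lists share genes and all share the same 2 columns. With the GC trend taken out, 40 of the 43 medians lay within 0.10 of 0. The 3 others were the primary granule genes, the metallothionein list and, just past it, the cytoskeleton and housekeeping genes (-0.10). That fit also takes out the shared shift, so the count of lists near 0 does not measure GC content alone. Relative to the median of all rows, S phase genes already stood at -0.01 and mitosis genes at 0.04 without it. No gene of these 43 lists passed 2-fold except H3F3A among the replacement histones.

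The primary granule genes had the lowest median, -0.55, and it was below 0 under each scaling, from -0.61 (rescaled to the spike-ins) to -0.23 (rescaled to the same total). All 13 kept were lower at 24 h on the deposited scale and 9 of 13 when rescaled to the same total, against 94.7% and 31.9% of all kept rows. PRSS57, a granule protease of neutrophils, stood at 138 FPKM and 75.5 FPKM (-0.86), the largest difference of the list. AZU1 (-0.78), PRTN3 (-0.75), CFD (complement factor D, -0.68), MPO (-0.65) and ELANE (-0.63) came next, and these 6 and CTSG (-0.55) have transcripts of 57.2% GC or more. The list's transcripts had a median GC content of 57.3%, against 48.3% for all matched rows. Relative to the median of all rows the list's median was -0.33. With the GC trend taken out it was -0.18, with AZU1 at -0.31, PRTN3 at -0.25, PRSS57 at -0.34 and ELANE at -0.12, and 2 of 13 above 0. The 2 were SRGN (0.02) and SERPINB1 (0.02), an inhibitor of the proteases, both with fewer G and C. The eosinophil-type ribonuclease RNASE2 stood at 649 FPKM and 559 FPKM (-0.22) and RNASE3 at 38.0 FPKM and 30.01 FPKM (-0.33). In the treated cells the same list had a 24 h minus 4 h median of -0.53 with IACS-9571 and 0.02 with dTRIM24. Over all kept rows these medians were -0.26 and 0.04, and no treated list median was taken with the GC trend out.

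The metallothionein list stood at the other end. Its 7 kept genes are 5 metallothioneins, their regulator MTF1 and the zinc exporter SLC30A1. The list's median was 0.03 as deposited and 0.26 relative to the median of all rows. It was 0.34 with the GC trend taken out and -0.03 when rescaled to the spike-ins. The 5 metallothioneins alone, taken apart after their values were seen, had a median of 0.08 as deposited, 0.30 with median centring, 0.01 when rescaled to the spike-ins and 0.39 with the GC trend out. MT1G stood at 93.1 FPKM and 107 FPKM (0.20), MT1F at 54.2 FPKM and 58.4 FPKM (0.11), MT1X at 104 FPKM and 109 FPKM (0.08) and MT1E at 81.2 FPKM and 83.2 FPKM (0.03). MT2A, the most abundant at 4 h, stood at 119 FPKM and 99.4 FPKM (-0.26). The 4 MT1 genes were above 0 on the deposited scale, where 94.7% of rows were below it, and none of the 5 differences passed 2-fold. Of the 5, MT2A alone was below 0 as deposited, and 2 were when rescaled to the spike-ins. Their transcripts had a GC content between 53.5% (MT1E) and 62.98% (MT2A). At that content most genes stood lower, and the fit takes out the shared shift too. The 5 differences with the trend out were 0.56, 0.52, 0.39, 0.34 and 0.20 for MT1G, MT1F, MT1X, MT1E and MT2A. MTF1, the zinc sensor that binds metallothionein promoters, stood at 4.402 FPKM and 3.41 FPKM (-0.29), and SLC30A1, a zinc exporter and MTF1 target, at 18.7 FPKM and 14.9 FPKM (-0.30). MT1A, MT1B, MT1H and MT1M stood at or near the shared low value. The time difference of MT1G was 0.02 with IACS-9571 and 0.34 with dTRIM24, and that of MT1X -0.06 and 0.42. The medians of all kept rows were -0.26 and 0.04. These genes are close copies of one another, and reads could be split among them by the authors' counting.

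**Figure D5:**
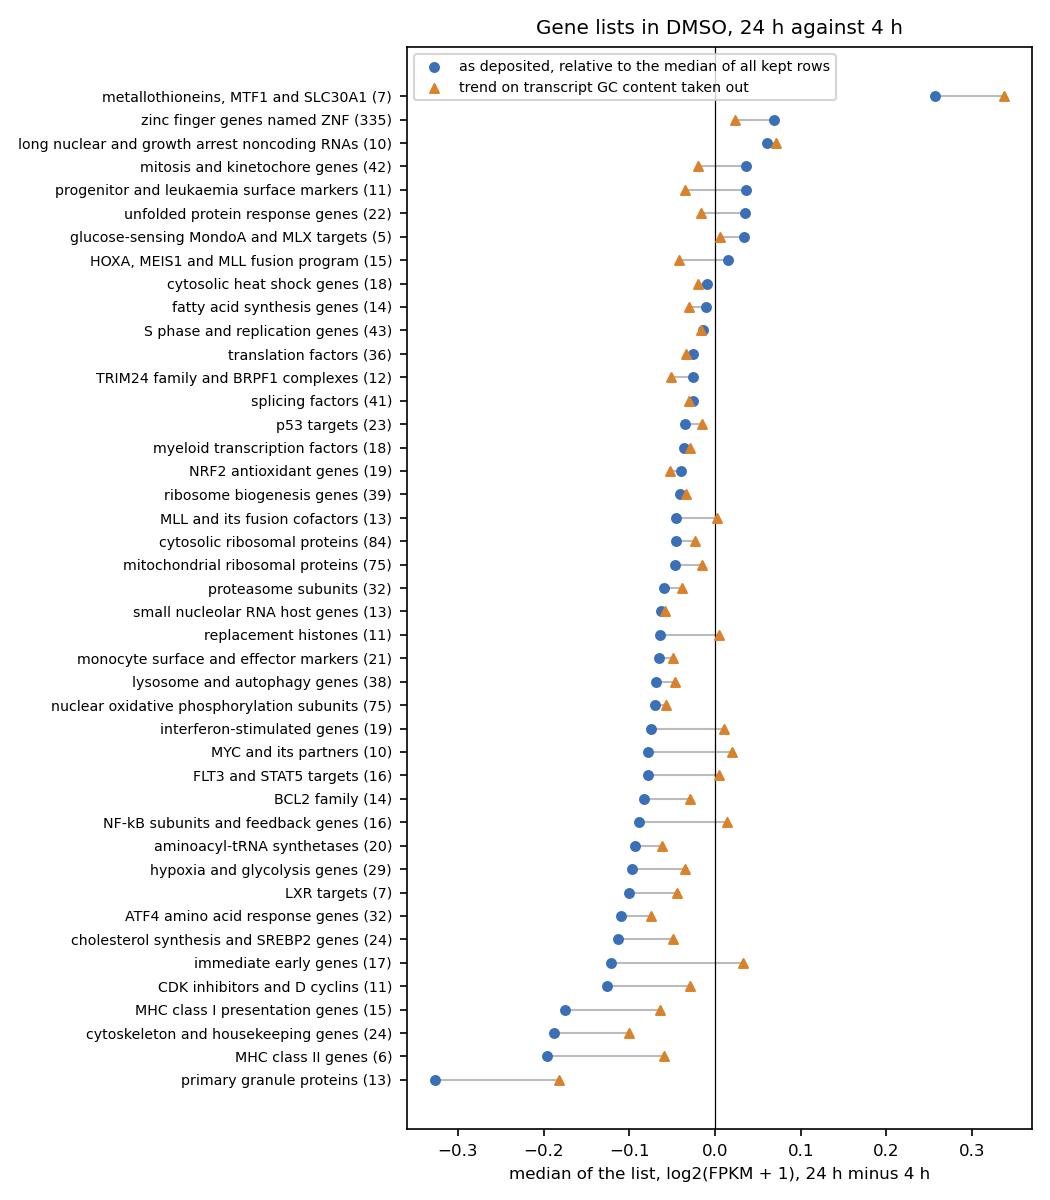
Medians of 43 gene lists in DMSO, 24 h minus 4 h on the log2(FPKM + 1) scale, as deposited relative to the median of all kept rows (blue circles) and with the trend on GC content taken out (orange triangles); kept genes are counted in brackets. Primary granule genes lie lowest and the list of metallothioneins, MTF1 and SLC30A1 highest in both forms, and most other lists move toward 0 when the trend is out.

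Presentation genes stood lower with their GC content. All 15 kept MHC class I genes were lower, with a median of -0.40, and 8 of 15 were lower when rescaled to the same total. The shares of all kept rows were 94.7% and 31.9%. HLA-B stood at 285 FPKM and 188 FPKM (-0.60), and B2M, the invariant light chain with fewer G and C, at 1383 FPKM and 1208 FPKM (-0.20). The class I median was -0.06 with the GC trend taken out. The MHC class II genes were low apart from the invariant chain CD74 (114 FPKM and 83.3 FPKM, -0.45) and HLA-DRA (10.1 FPKM and 7.04 FPKM, -0.46), and their regulator CIITA stood at 0.352 FPKM and 0.293 FPKM.

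Growth and nutrient genes were lower without a gene past 2-fold. In the list of glycolysis and hypoxia genes all 29 kept were lower (13 of 29 when rescaled to the same total), with a median of -0.32. This median was -0.10 relative to the median of all rows and -0.04 with the GC trend out. GAPDH stood at 4482 FPKM and 3166 FPKM (-0.50), SLC16A3, the lactate exporter, at 62.1 FPKM and 40.15 FPKM (-0.62), and PFKL at 61.8 FPKM and 39.9 FPKM (-0.62). CA9 and EGLN3, genes that rise steeply under low oxygen, stood at the shared low value. In the ATF4 list, whose genes make and import amino acids, all 32 kept were lower (17 of 32 when rescaled to the same total) with a median of -0.33, and SESN2 (10.7 FPKM and 6.44 FPKM, -0.65) and SLC7A5 (116 FPKM and 75.4 FPKM, -0.62) had the largest differences. That median was -0.11 relative to the median of all rows and -0.07 with the GC trend out. Of all kept rows 94.7% were lower as deposited and 31.9% when rescaled to the same total.

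Cholesterol synthesis genes are a list in which the 3 conditions stood apart over time on the deposited scale. In DMSO all 24 kept were lower (11 of 24 when rescaled to the same total), against 94.7% and 31.9% of all kept rows. Their median was -0.34, -0.11 relative to the median of all rows and -0.05 with the GC trend out. MVD stood at 12.7 FPKM and 7.38 FPKM (-0.70), and LSS at 12.8 FPKM and 7.99 FPKM (-0.62). The median of the same list was -1.32 with IACS-9571 and -0.78 with dTRIM24. These are 3 separate differences of means with no test between them.

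Immediate early genes answer growth signals and handling of cells within minutes, and several of them were low at both times. FOS stood at 3.92 FPKM and 3.12 FPKM, EGR1 at 0.473 FPKM and 0.642 FPKM, and JUN at 0.384 FPKM and 0.340 FPKM. JUNB stood at 42.2 FPKM and 26.4 FPKM (-0.66), the largest difference of the list. The list had 17 of 23 genes kept and a median of -0.34. This median was -0.12 relative to the median of all rows and 0.03 with the GC trend out.

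TRIM24, the protein both compounds were made for, stood at 14.6 FPKM and 13.97 FPKM (-0.06) in the control cells. BRPF1, the second bromodomain protein bound by IACS-9571, stood at 7.99 FPKM and 5.57 FPKM (-0.45). TRIM28, a relative of TRIM24, had the largest difference of that list at 170.3 FPKM and 113 FPKM (-0.59). Neither target passed 2-fold between the times, and neither mean carries a replicate error.

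The 24 rows other than small RNAs that passed 2-fold in DMSO were compared with the same time difference in treated cells. With IACS-9571 1 of the 24 passed 2-fold in the same direction and 8 in the opposite direction, where 0.00928% of the 10776 rows rose and 0.445% fell. With dTRIM24 the counts were 1 and 10, where 0.0278% rose and 0.473% fell. Among the 24 are 5 near-identical SNAR-A rows, HIST1H3B, HIST1H1B, HIST1H4E, NEDD8-MDP1, PPAN-P2RY11 and URGCP-MRPS24, which reached 1 FPKM in DMSO at 24 h only. LOC728875 and HP07349 reached it at 4 h only. Such rows had to differ in DMSO, so nothing is drawn from these counts. H3F3A rose with dTRIM24 too (1.64), and its difference was -0.11 with IACS-9571. HYPK fell with IACS-9571 (-1.64) and had a difference of 0.17 with dTRIM24. RMRP and RPPH1 fell with IACS-9571 (-1.72 and -1.99) and with dTRIM24 (-5.82 and -5.69). Over all kept rows the median time difference was -0.26 with IACS-9571 and 0.04 with dTRIM24.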

How the data were processed

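Per the submitters' processing notes, TopHat2 and Cuffnorm were used and hg19 was the build of the deposited FPKM values. For tool versions, the gene annotation and use of strand, nothing is given in the sources used here. Samples were normalized by cell number and mixed with ERCC spike-ins before sequencing on an Illumina NextSeq, per the labels' protocols. The table gives 1 mean per group, so depth is unknown, and leaving out samples or blocking by replicate was not possible.

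Differences of log2(FPKM + 1) were taken between the DMSO columns over 10936 gene rows with at least 1 FPKM in either, with 2-fold as the threshold. The members and gene lists were chosen with earlier results of these data known. Named genes were the 20 highest rows, up to 15 rows past 2-fold in each direction that reached 5 FPKM (up to 5 small RNA rows), up to 6 members of each list by size of difference or level, TRIM24 and BRPF1. PTMA, the partners of shared loci, rows past 2-fold under 5 FPKM, genes at the floor and further list members were named after their values were seen. GC content came from GENCODE transcripts and promoters and the microRNA from RefSeq (GRCh38.p14), matched by symbol. The steps were tested on simulated data. Alternatives were other pseudocounts and floors, classes left out, other scalings, a 1.5-fold threshold and removal of the GC trend. The tools were matplotlib 3.10.9, scipy 1.17.1, pandas 2.3.3, numpy 2.4.6 and Python 3.11.15.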

Additional observations from a re-analysis of the deposited data

How the results depend on the processing

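No paired analysis was possible because only group means were analysed, and for the same reason no sample could be left out. The 88 rows past 2-fold higher became 18 without small RNA rows, 7 with RNAs lacking a tail also left out, and 29 once the cubic GC trend was removed. That removal covers no small RNA rows and takes out the shared shift too, so its 29 compares with the 18 and is more. The 42 lower became 6, 6 and 2 under those settings, which test fewer rows, and 447 at 1.5-fold. The median difference of all kept rows (-0.22) was -0.0083 with no filter on low values, 0 with median centring, 0.0083 with quantile normalization, 0.10 when rescaled to the same total of 24 h and 4 h, and -0.012 once the GC trend was removed. The unfiltered median covers 23621 gene rows against 10936, and 6059 of them stood at the shared low value. It therefore does not describe the shift of the kept rows. Rescaling to the spike-ins, other pseudocounts and a floor of 5 FPKM kept these 3 results within the limits set (counts within 1.5 times, medians within the spike-in SD of 0.19). Of 34 named rows past 2-fold, those still present (25 at the floor of 5 FPKM, 24 and 13 with classes left out, 18 with GC content, 34 otherwise) kept their sign. HOXA-AS4, HP07349 and P2RY11 went under 2-fold with median centring, when rescaled to the same total and with the GC trend out. With quantile normalization HP07349 and P2RY11 did so as well, and BCYRN1 did with spike-in rescaling. Depth is unknown, so low rows cannot be weighed by counts.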
